A study of Mus musculus with 24 samples.

Results

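The genes described here handle heme and iron, and are 10 of the 36333 genes listed in the expression table: Cd163, Hp and Hpx (capture of hemoglobin and heme), Hmox1 (heme breakdown), Ftl1 and Fth1 (iron storage), Slc40a1 and Cp (iron export) and Slc11a1 and Tfrc (iron uptake). They were chosen by symbol as a list of named genes, without a cut on their values but with earlier results of these data known. All 10 were measured and passed the filter on low values. Brain RNA was sequenced from 24 male mice, 1 library per mouse, at 5 days post injury (dpi). Traumatic brain injury (TBI) was produced by controlled cortical impact (CCI), in which a piston strikes the exposed cortex, and the sampled tissue held the lesion and its surroundings. Injured mice received vehicle (n = 5), PLX3397 (n = 5), Anakinra (n = 5) or PLX3397+Anakinra (n = 5), and a sham group (n = 4) had surgery without impact or craniotomy.

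All mice are labelled as 12 to 16 weeks old, whereas the methods give a narrower range, and no genetic change is given. The labels give the strain as C57BL6N, whereas the methods name C57BL/6JRj. PLX3397 blocks colony stimulating factor 1 receptor (CSF1R), on which microglia and many macrophages depend, and was given in chow at 290 mg per kg of food from shortly after the impact until 5 dpi. Anakinra is a recombinant antagonist of the interleukin-1 receptor (IL1R1) and was injected subcutaneously at 100 mg per kg directly after the impact and on the following days. Control chow and saline injections stood in for the drug not given, in sham mice too. No sham group received either drug, so a drug effect in uninjured tissue cannot be told apart from its effect on the response to injury. The tissue is labelled cortex, whereas the methods describe sections with cortex, striatum, dorsal hippocampus and thalamus.

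Blood that enters the brain after an impact releases hemoglobin when red blood cells break. Haptoglobin binds free hemoglobin and hemopexin binds free heme, and macrophages take up hemoglobin bound to haptoglobin through CD163. Heme oxygenase 1 opens the heme ring and frees iron, which is stored in ferritin shells built of heavy and light chains or leaves the cell through ferroportin. Cells match ferritin, ferroportin and transferrin receptor to their iron supply in part through iron-responsive elements, short hairpins in the untranslated regions of these mRNAs that are bound by iron regulatory proteins. Before the coding sequence such a hairpin acts on translation, and after it on the stability of the mRNA.

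Expression was given as TPM, in which transcripts are scaled by their length and to the same sum in every library, and 22160 to 23249 genes were above 0 in each library. The methods name the unit TPM but add that the software calls it CPM. In the values themselves, the smallest level above 0 of 3374 protein-coding genes averaging under 0.5 TPM fell with the length of their longest transcript (Spearman rho = -0.51 across genes), as scaling by length gives, whereas in CPM 1 read is worth the same for every gene. Read counts were not used here and the sequencing depth is unknown, so the precision of each value rests on the number of mice. Fold changes and adjusted p-values are from limma on log2(TPM + 1), adjusted after Benjamini-Hochberg over the 17267 genes tested, and a gene was called at an adjusted p below 0.05. Fold changes on this scale understate the change of genes near or below 1 TPM. Microglial markers were present in every group, with summed levels of 351 to 374 TPM in sham and 1438 to 1867 TPM in vehicle mice, and neuronal markers summed to 6980.3 to 7432 and 4282 to 5183 TPM. In bulk tissue, fewer cells of a type and less RNA per cell cannot be told apart. Replicates were numbered in the order of the deposit, and the number only names a mouse. In the deposited names, all vehicle mice and no others carry a B after the animal number, such as J17B. The names J01, J19 and J20 without it belong to PLX3397 mice, and J17 to a combination mouse. What the letter stands for is not given in the sources used here. Whatever it marks cannot be told apart from vehicle treatment in any comparison with vehicle mice.

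TBI changed 9 of the 10 genes. In vehicle compared with sham mice, Hmox1, Slc11a1, Ftl1, Slc40a1, Hp, Cp, Hpx and Fth1 rose, Tfrc fell, and Cd163 did not pass the test (adjusted p = 0.146). Of all genes tested, 54.3% were called in this comparison (26.6% higher and 27.7% lower), the background against which the count of 9 has to be read. The median log2 fold change was 0.91 over the 10 genes and -0.01 over all genes tested. Groups did not overlap for 8 of the 10 genes, against 42.7% of all genes.

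**Figure D1:**
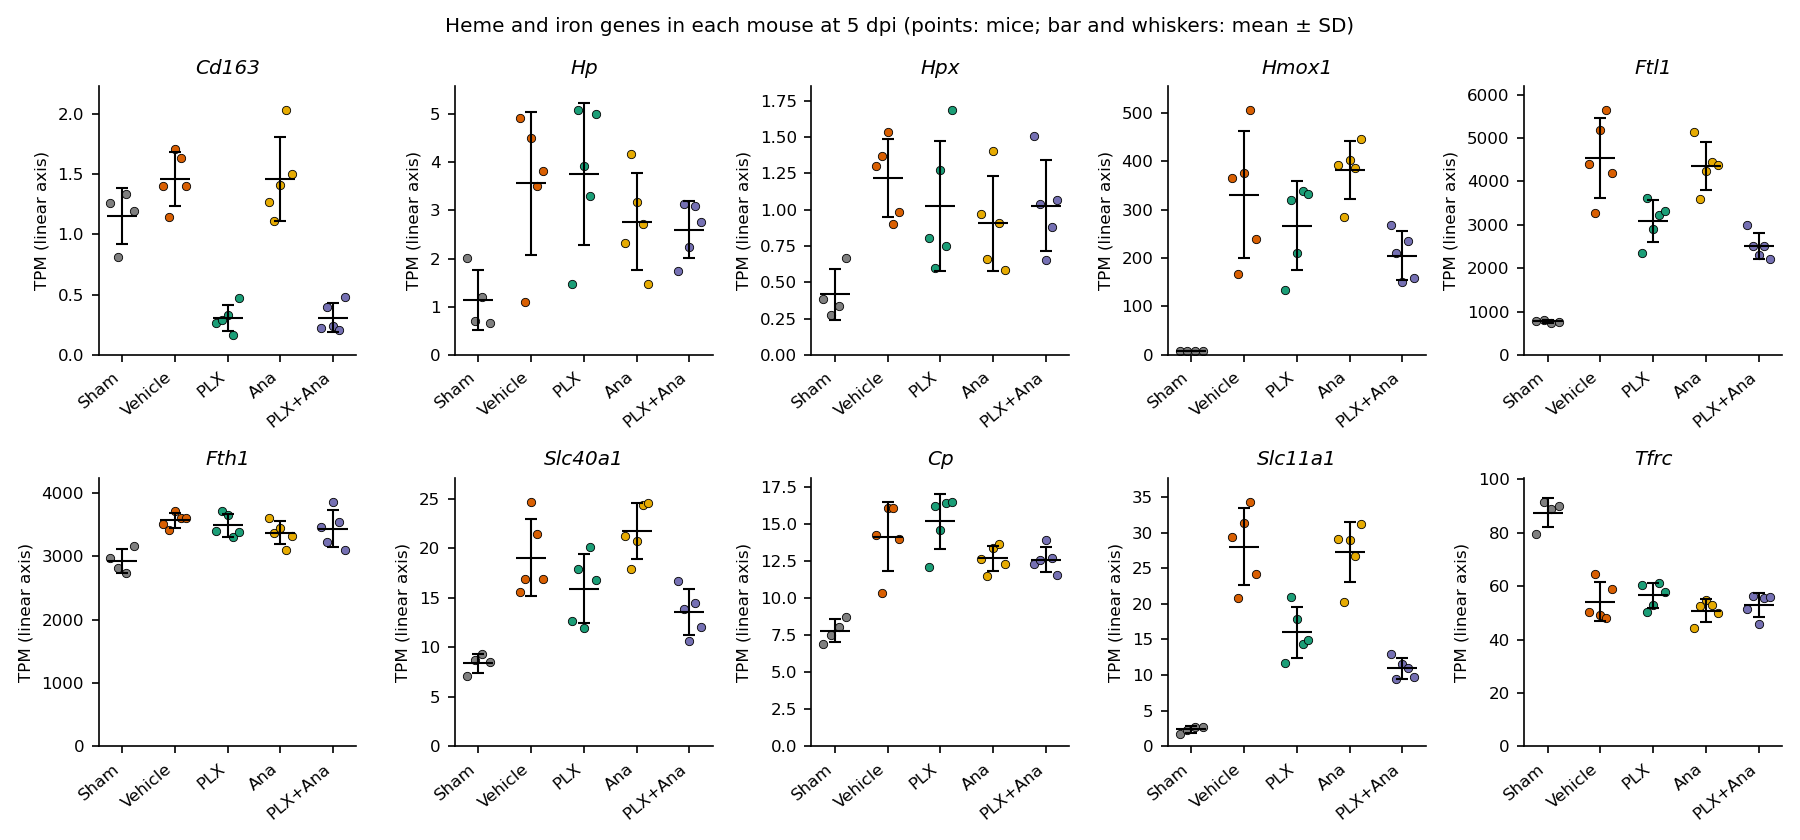
TPM of the 10 genes in each of 24 mice, on linear axes from 0 (PLX is PLX3397 and Ana is Anakinra). Points are mice, and bars with whiskers are the mean ± SD of each group. Hmox1, Ftl1 and Slc11a1 were lowest in sham mice, Tfrc was highest in sham mice, and Cd163 was lowest in both groups that received PLX3397.

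Cd163 (GRCm38.p6 chromosome 6, 124304636 to 124330529) encodes the macrophage receptor for hemoglobin bound to haptoglobin. Its level was 1.26, 0.811, 1.33 and 1.19 TPM in the sham mice and 1.40, 1.14, 1.70, 1.63 and 1.40 TPM in the vehicle mice. With PLX3397 it was 0.264, 0.293, 0.334, 0.164 and 0.469 TPM, and with PLX3397+Anakinra 0.219, 0.397, 0.244, 0.202 and 0.476 TPM. Every mouse that received PLX3397 was thus below every sham, vehicle and Anakinra mouse. Anakinra alone gave 1.11 to 2.03 TPM, overlapping with vehicle and with sham.

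The mean of Cd163 was 4.77-fold lower with PLX3397 than with vehicle (log2 fold change -0.91 ± 0.10, adjusted p = 8.71e-07) and 4.73-fold lower with the combination (log2 fold change -0.91 ± 0.10, adjusted p = 4.33e-07). It was also below sham, 3.77-fold with PLX3397 (adjusted p = 9.9e-06) and 3.73-fold with the combination (adjusted p = 1.41e-05). The order of the means was Anakinra, vehicle, sham, PLX3397+Anakinra and PLX3397, and only the step from sham to PLX3397+Anakinra was called among these neighbours. Cd163 and Tfrc were the only genes of the 10 below sham in PLX3397 mice. Of the 8 border macrophage markers, 5 rose and 2 fell against sham in PLX3397 mice, and 5 rose and 3 fell in combination mice. Most of these markers thus lay above sham, whereas the means of Mrc1, Lyve1 and Cbr2 were below sham in both PLX3397 groups, as for Cd163. Stab1, for example, averaged 8.58 TPM in sham and 39.6 TPM in PLX3397 mice. Mrc1 averaged 2.37 and 0.987 TPM in these groups, Lyve1 0.951 and 0.223 TPM and Cbr2 2.64 and 2.00 TPM.

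Hp (chromosome 8, 109575128 to 109579172) and Hpx (chromosome 7, 105591611 to 105600116), the genes of haptoglobin and hemopexin, were near or below 5 TPM in every mouse. Hp was 2.01, 0.706, 1.21 and 0.655 TPM in sham and 4.91, 1.11, 4.50, 3.50 and 3.82 TPM in vehicle mice, a rise of 1.05 on the log2 scale (adjusted p = 0.00231). Vehicle replicate 2, at 1.11 TPM, lay within the sham range, and the other vehicle mice were above it. In PLX3397 mice Hp was 1.48 to 5.08 TPM, in Anakinra mice 1.46 to 4.17 TPM and in PLX3397+Anakinra mice 1.75 to 3.14 TPM. Hp was thus higher than in sham in all 4 TBI groups, and it passed no test among those groups.

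Hpx rose from 0.417 ± 0.174 TPM (SD, n = 4) to 1.22 ± 0.269 TPM (SD, n = 5) (log2 fold change 0.65 ± 0.15, adjusted p = 0.000837), with no overlap between both groups. The other TBI groups had means of 1.02, 0.904 and 1.03 TPM (PLX3397, Anakinra and the combination), each above sham and not called against vehicle. The weakest of these calls against sham depended on single mice. Hpx in Anakinra mice (adjusted p = 0.0223) was not called without Anakinra replicate 3 (0.073), sham replicate 2 (0.0675) or sham replicate 3 (0.0546). Hp in Anakinra mice (adjusted p = 0.015) was lost without sham replicate 2 (0.0509) or 4 (0.0548). In combination mice, Hp (adjusted p = 0.0279) was lost without sham replicate 2 (0.0855) or 4 (0.0909) and without combination replicate 2 (0.0607) or 4 (0.058), and with no filter on low values (0.057). Both proteins are known as products of the liver. Of the hepatocyte markers, Alb, Fga and Serpina1a were at or near 0 (at most 0.401 TPM for Alb in a vehicle mouse), whereas in vehicle mice Apoa1 averaged 0.650 TPM, Apoa2 3.10 TPM, near the level of Hp, and Ttr, also a choroid plexus marker, 3301 TPM. The source of Hp and Hpx transcripts was not tested.

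Hmox1 (chromosome 8, 75093618 to 75100593), the inducible heme oxygenase, had the largest fold change of the 10 genes after TBI. It was 8.56, 7.92, 8.82 and 7.05 TPM in the sham mice. The vehicle mice had 366, 166, 376, 505 and 239.9 TPM. Every vehicle mouse was far above every sham mouse, and vehicle mice also differed widely among themselves. The means were 8.09 ± 0.787 TPM (SD, n = 4) and 330.4 ± 131 TPM (SD, n = 5), 40.9-fold apart (log2 fold change 5.09 ± 0.26, adjusted p = 4.36e-14).

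PLX3397 mice had 133, 320.0, 210.2, 338 and 332 TPM of Hmox1, Anakinra mice 391, 284, 403, 385 and 446 TPM, and PLX3397+Anakinra mice 269, 211, 151, 235 and 158 TPM. All drug-treated mice were above the sham range, and each drug group overlapped with vehicle. Between the groups with the highest and the lowest mean, Anakinra and the combination, no value overlapped. The combination mean was 1.87-fold below that of Anakinra (log2 fold change -0.92 ± 0.25, adjusted p = 0.0152), and this call was lost without combination replicate 5 (adjusted p = 0.0508). Against vehicle, the combination gave a log2 fold change of -0.62 ± 0.25, adjusted p = 0.0879, with a 95% confidence interval of -1.14 to -0.11, and the difference was not called. Without vehicle replicate 2, the lowest vehicle mouse, it was called (log2 fold change -0.84, adjusted p = 0.011). Against vehicle, PLX3397 alone gave -0.29 (-0.80 to 0.22) and Anakinra alone 0.29 (-0.22 to 0.81), and neither was called.

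The enzymes that act after heme oxygenase moved less. Blvrb, a biliverdin reductase, rose from 17.5 to 33.7 TPM (log2 fold change 0.90, adjusted p = 1.82e-08) from sham to vehicle, and Blvra, the main biliverdin reductase of adult tissue, rose from 27.00 to 33.7 TPM (log2 fold change 0.31, adjusted p = 6.39e-05). Blvrb fell in PLX3397 compared with vehicle mice from 33.7 to 26.2 TPM (log2 fold change -0.35, adjusted p = 0.013) and in combination compared with vehicle mice from 33.7 to 27.4 TPM (log2 fold change -0.28, adjusted p = 0.0316). Blvra fell in combination compared with vehicle mice from 33.7 to 29.7 TPM (log2 fold change -0.18, adjusted p = 0.0209). Hmox2, the constitutive heme oxygenase, passed no test between vehicle and sham (log2 fold change 0.01, adjusted p = 0.925), and is named here after its value was seen.

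Of the 10 genes, 4 held a match to the pattern of an iron-responsive element in their transcripts, compared with 222 of 21877 genes with protein-coding transcripts (1.01%). The pattern was a bulged C, a stem of 5 base pairs (G-T pairs allowed) and the loop CAGTGN with a last base other than G, read on the transcript strand of GENCODE M21 (GRCm38), and this search was chosen after the expression values were seen. The matches are shown because their side of the coding sequence separates the storage and export genes from transferrin receptor. The loop is in capitals in each 27-base stretch.
Ftl1 5′ UTR, chr7:45459780-45459806, minus strand: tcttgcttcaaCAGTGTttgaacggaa
Fth1 5′ UTR, chr19:9982733-9982759, plus strand: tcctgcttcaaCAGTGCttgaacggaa
Slc40a1 5′ UTR, chr1:45925466-45925492, minus strand: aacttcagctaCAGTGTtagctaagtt
Tfrc 3′ UTR, chr16:32631220-32631246, plus strand: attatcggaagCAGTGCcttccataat
Tfrc 3′ UTR, chr16:32631599-32631625, plus strand: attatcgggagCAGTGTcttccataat
Tfrc 3′ UTR, chr16:32631664-32631690, plus strand: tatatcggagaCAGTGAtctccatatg
Tfrc 3′ UTR, chr16:32631711-32631737, plus strand: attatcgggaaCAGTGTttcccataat
The 3 transcripts with a match before the coding sequence (Ftl1, Fth1 and Slc40a1) rose after TBI, and Tfrc, with 4 matches after it, fell. Hmox1, Slc11a1, Hp, Cp and Hpx, which held no match, rose as well. The genes with a match are those introduced above as carrying such elements. A match is a description of the letters, and occupancy by iron regulatory proteins was not measured. The part of the elements in these changes was not tested.

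Ftl1 and Fth1 encode the light and heavy chains of ferritin. Ftl1 (chromosome 7, 45457944 to 45459886) was 789.6, 805, 734 and 767 TPM in the sham mice and 4391, 3266, 5195, 5638 and 4187 TPM in the vehicle mice. Every vehicle mouse was above every sham mouse. The mean rose 5.86-fold, from 774 ± 30.7 TPM (SD, n = 4) to 4535 ± 922 TPM (SD, n = 5) (log2 fold change 2.52 ± 0.13, adjusted p = 3.88e-14).

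With PLX3397, Ftl1 was 2340.3, 3608, 2910.1, 3232 and 3323 TPM, with Anakinra 5129.7, 3593, 4248, 4449 and 4368 TPM, and with PLX3397+Anakinra 2986, 2518, 2303, 2502 and 2214 TPM. Combination mice were all below vehicle mice, PLX3397 mice overlapped with vehicle only at vehicle replicate 2 (3266 TPM), and Anakinra mice lay within the vehicle range. Ftl1 fell by 0.55 on the log2 scale with PLX3397 (SE 0.12, adjusted p = 0.00409) and by 0.84 with the combination (SE 0.12, adjusted p = 1.7e-05). With Anakinra alone the log2 fold change was -0.04, with an interval of -0.30 to 0.21. The combination still left Ftl1 3.24-fold above sham (adjusted p = 2.74e-10), and the excess of mean TPM over sham was 46.01% of that in vehicle mice.

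Fth1 (chromosome 19, 9980600 to 9985111) was already among the abundant transcripts in sham tissue, at 2737 to 3171 TPM, compared with 3419.9 to 3717 TPM in vehicle mice. Its rise after TBI was 0.29 on the log2 scale (adjusted p = 0.000253), with no overlap between groups. The drug groups had means of 3495, 3373 and 3442 TPM, and none was called against vehicle, with log2 fold changes between -0.08 and -0.03. Both ferritin genes have near-identical processed copies elsewhere in the genome, and how reads shared with such copies were assigned is not given in the sources used here.

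The balance of both chains moved with injury and with PLX3397. The ratio of Ftl1 to Fth1 TPM is formed within a library, so it does not depend on the scaling between libraries, but it was chosen after the values were seen, and its tests are not independent of those of Ftl1. It was 0.266 ± 0.0182 in sham (SD, n = 4), 1.27 ± 0.232 in vehicle (n = 5) and 1.29 ± 0.151 in Anakinra mice (n = 5). It was 0.882 ± 0.134 with PLX3397 (n = 5) and 0.731 ± 0.0977 with the combination (n = 5). No TBI mouse came near the sham range, whose highest value was 0.286, and no combination mouse (highest 0.860) reached the lowest vehicle mouse (0.955).

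In two-sided exact permutation tests of the log2 ratio, adjusted over 10 comparisons, all 4 TBI groups differed from sham (p = 0.0159 each, the smallest value the design gives for 5 against 4 mice, adjusted p = 0.0227). Against vehicle the exact permutation p was 0.00794 for the combination (the smallest value for 5 against 5 mice, adjusted p = 0.0227) and 0.0317 for PLX3397 (adjusted p = 0.0397). For Anakinra against vehicle it was 0.77 in the exact permutation test, with a mean log2 difference of 0.04. The combination and PLX3397 alone were not separated (exact permutation p = 0.0952, adjusted p = 0.106).

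**Figure D2:**
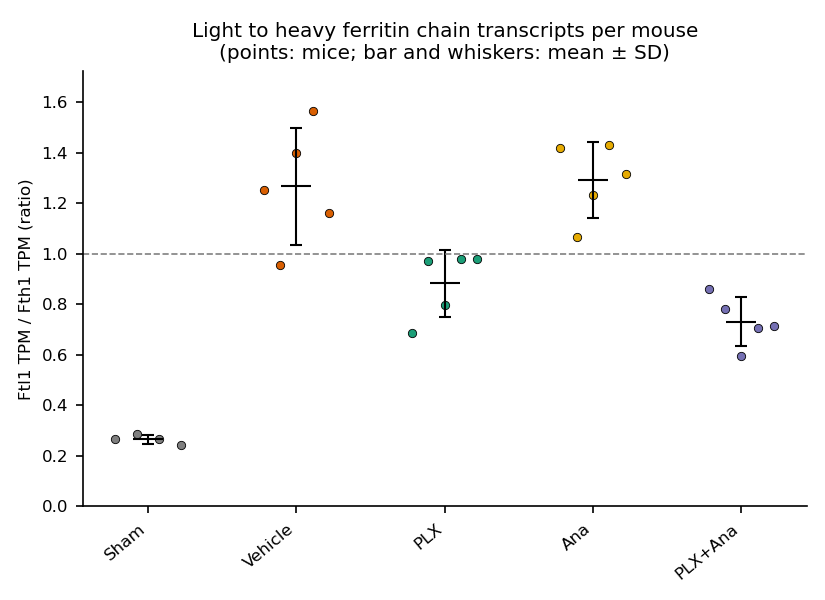
Ratio of Ftl1 to Fth1 TPM in each mouse, by group, on a linear axis from 0. Points are mice, bars with whiskers are the mean ± SD, and the dashed line marks equal levels. Sham mice lay between 0.242 and 0.286, and all combination and PLX3397 mice were below 1.

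Slc40a1 (chromosome 1, 45908070 to 45926532) encodes ferroportin, the iron exporter of the cell surface. It was 7.08, 8.74, 9.28 and 8.48 TPM in the sham mice and 15.5, 16.8, 24.7, 21.4 and 16.8 TPM in the vehicle mice, with no overlap. PLX3397 mice had 12.6, 17.9, 11.98, 20.1 and 16.8 TPM, Anakinra mice 21.3, 17.9, 20.7, 24.4 and 24.6 TPM and combination mice 16.7, 13.9, 10.6, 14.5 and 12.02 TPM. The means were ordered Anakinra, vehicle, PLX3397, PLX3397+Anakinra and sham, and of these neighbours only the combination against sham was called.

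From sham to vehicle, Slc40a1 rose 2.27-fold (log2 fold change 1.08 ± 0.15, adjusted p = 8.33e-07). Anakinra and combination mice did not overlap, and the combination was lower (log2 fold change -0.65 ± 0.14, adjusted p = 0.00169). Against vehicle, the combination was lower by a smaller margin (log2 fold change -0.46 ± 0.14, adjusted p = 0.0216), and this call was lost without vehicle replicate 3 (adjusted p = 0.0852), vehicle replicate 4 (0.0645), combination replicate 3 (0.0751) or combination replicate 5 (0.0551). PLX3397 compared with Anakinra stood at the threshold (log2 fold change -0.45 ± 0.14, adjusted p = 0.0499) and lost its call when any of 7 of the 10 mice was left out, with adjusted p from 0.0584 without PLX3397 replicate 5 to 0.155 without PLX3397 replicate 1. It was also lost with a pseudocount of 0.1 TPM (adjusted p = 0.0551), with no filter on low values (0.0945) and with only the compared groups in the fit (0.0645).

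Cp (chromosome 3, 19956933 to 20009750) encodes ceruloplasmin, the ferroxidase that loads exported iron onto transferrin. It rose from 7.80 ± 0.766 TPM (SD, n = 4) to 14.1 ± 2.34 TPM (SD, n = 5) (log2 fold change 0.77 ± 0.10, adjusted p = 5.39e-07). PLX3397 mice had 12.1 to 16.5 TPM, Anakinra mice 11.5 to 13.6 TPM and combination mice 11.5 to 13.9 TPM. All TBI mice were above the sham range of 6.90 to 8.70 TPM, and the drug groups overlapped with vehicle. For the combination against vehicle, the log2 fold change was -0.14 (adjusted p = 0.335), and without vehicle replicate 2, the lowest vehicle mouse, it was -0.24 (adjusted p = 0.0373).

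Slc11a1 (chromosome 1, 74375014 to 74386057), also known as Nramp1, moves iron and other divalent metals out of the phagosomes of macrophages and neutrophils. Its level was 1.77, 2.27, 2.77 and 2.74 TPM in sham and 29.4, 20.9, 31.3, 34.3 and 24.2 TPM in vehicle mice, an 11.7-fold difference of the means (log2 fold change 3.09 ± 0.15, adjusted p = 1.39e-14). With PLX3397 it was 11.8, 21.02, 17.9, 14.3 and 14.99 TPM, and with PLX3397+Anakinra 13.01, 9.51, 11.5, 11.002 and 9.69 TPM. Combination mice were all below vehicle mice, and of the PLX3397 mice 4 of 5 were. Anakinra mice, at 29.1, 20.2, 28.9, 26.7 and 31.2 TPM, covered almost the same range as vehicle mice.

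Between the combination and vehicle, the log2 fold change of Slc11a1 was -1.27 ± 0.14 (adjusted p = 2.65e-07, 95% confidence interval -1.56 to -0.97). As a ratio of mean TPM it was 2.56-fold lower, compared with 4.73-fold for Cd163, whose change the log2(TPM + 1) scale understates. With PLX3397 alone the log2 fold change was -0.78 ± 0.14, adjusted p = 0.000516, and with Anakinra alone -0.03 (95% confidence interval -0.33 to 0.26). The excess of mean TPM over sham was 53.1% of that in vehicle mice with PLX3397 and 33.4% with the combination. The interaction, that is the change by Anakinra on top of PLX3397 less the change by Anakinra alone, was -0.46 ± 0.20 on the log2 scale (unadjusted p = 0.0312 and adjusted p = 0.575 in limma). It was the only one of the 10 genes with an unadjusted interaction p below 0.05, and 0 of all genes tested passed the adjusted threshold (0%).

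Tfrc (chromosome 16, 32608896 to 32632794), the transferrin receptor through which most cells take up iron, was the only gene of the 10 that fell from sham to vehicle. The sham mice had 79.4, 91.5, 88.9 and 90.1 TPM and the vehicle mice 50.4, 64.5, 49.4, 48.1 and 58.8 TPM. The groups did not overlap, and the mean was 1.61-fold lower in vehicle mice (log2 fold change -0.69 ± 0.08, adjusted p = 1.45e-07). PLX3397 mice had 50.3 to 61.1 TPM, Anakinra mice 44.1 to 54.9 TPM and combination mice 45.9 to 56.2 TPM, all below the sham range. No drug group was called against vehicle, and the 95% confidence intervals of the log2 differences lay between -0.25 and 0.23. All 7 neuronal markers also fell from sham to vehicle, and 6 of 7 rose with the combination against vehicle. Their part in the level of Tfrc was not tested.

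Between TBI groups, calls were limited to Cd163, Slc11a1, Ftl1, Slc40a1 and Hmox1 with all mice in the fit. These comparisons share vehicle, PLX3397, Anakinra or combination mice with each other and are not independent. PLX3397 lowered 3 of 10 genes against vehicle (Cd163, Slc11a1 and Ftl1) and raised none, where 9.89% of all genes were called (6.66% lower and 3.23% higher). The combination lowered 4 of 10 against vehicle (Cd163, Slc11a1, Ftl1 and Slc40a1) and raised none, where 17.5% of all genes were called (9.60% lower and 7.88% higher). Anakinra changed 0 of 10 against vehicle in limma, where 0.116% of all genes were called, both at the adjusted threshold. At an unadjusted p below 0.05 it also changed 0 of 10. Groups did not overlap for 1 of 10 genes with PLX3397 (Cd163, 6.89% of all genes) and for 3 of 10 with the combination (Cd163, Slc11a1 and Ftl1, 10.7% of all genes). Fth1, Hpx, Hp, Cp and Tfrc were called between no pair of TBI groups.

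**Figure D3:**
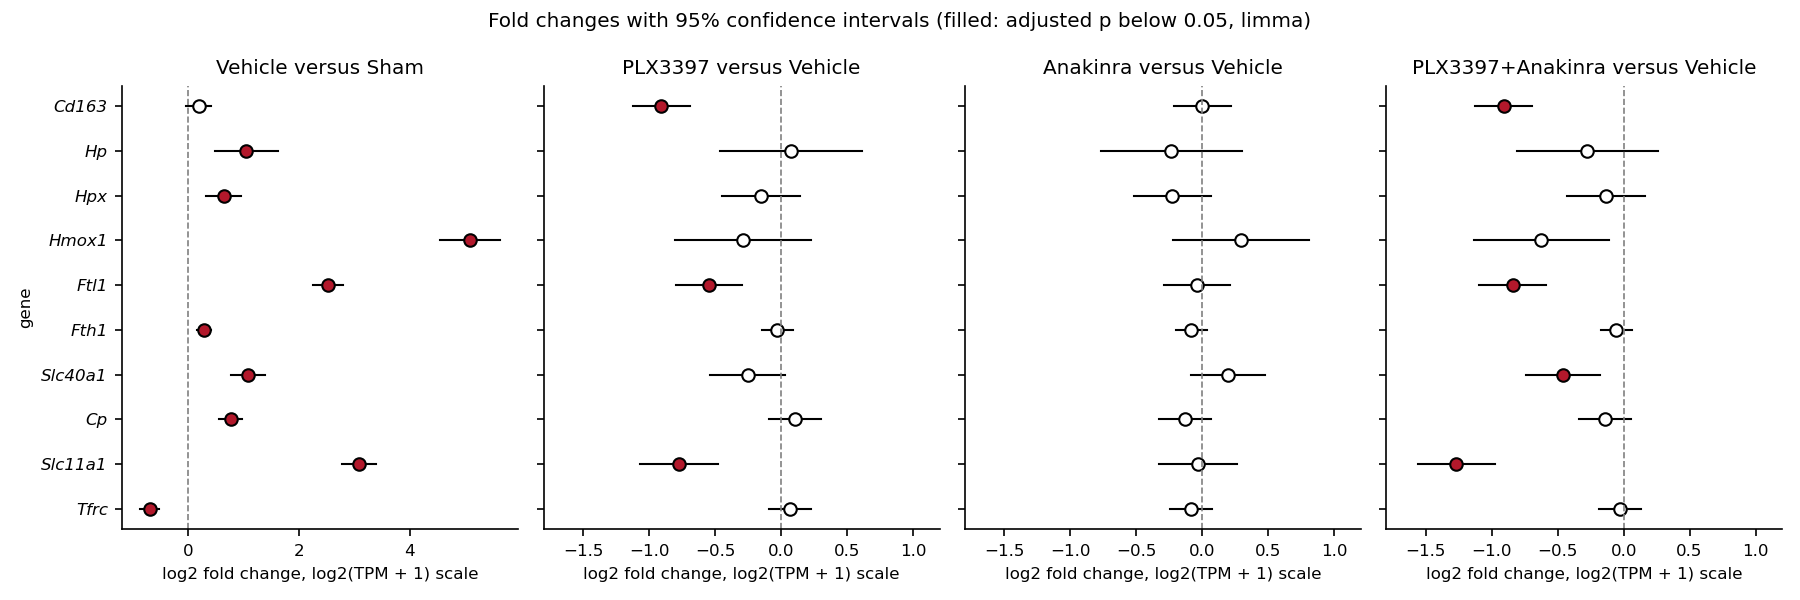
Log2 fold changes of the 10 genes, on the log2(TPM + 1) scale, for vehicle against sham and for each drug group against vehicle. Bars are 95% confidence intervals from limma, and filled points have an adjusted p below 0.05. The axis of the first panel is wider than that of the others. After injury 9 points are filled, with PLX3397 3, with Anakinra 0 and with the combination 4, all of these to the left of 0.

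Against Anakinra, the combination lowered 5 of 10 genes (Slc11a1, Hmox1, Cd163, Ftl1 and Slc40a1), where 12.8% of all genes were called (8.10% lower), and PLX3397 alone lowered 4 of 10 (Cd163, Slc11a1, Ftl1 and Slc40a1), where 6.69% were (5.41% lower). Adding Anakinra to PLX3397 changed 0 of 10 in limma, where 0.151% of all genes were called, both at the adjusted threshold. At an unadjusted p below 0.05 the count was 3 of 10. The share of all genes at that looser threshold is not given here, so this count has no background. Compared with sham, 10 of 10 genes were called in PLX3397 mice (45.2% of all genes, 22.7% higher), 9 of 10 in Anakinra mice (54.4%, 25.1% higher) and 10 of 10 in combination mice (38.8%, 20.7% higher). In each of these groups the 8 genes Hmox1, Slc11a1, Ftl1, Slc40a1, Hp, Cp, Hpx and Fth1 were above sham. Over the 5 groups together, limma's F-test called 10 of 10 genes and 51.9% of all genes. A stricter rule, which needs group means over 2-fold and over 4 TPM apart beside an unadjusted p below 0.05, called 4 of 10 genes in vehicle (5.26% of all genes), 3 in PLX3397 (3.66%), 4 in Anakinra (5.29%) and 3 in combination mice (2.90%) against sham. Against vehicle it called 0 with PLX3397 (1.02%) and 1 with the combination (1.65%), and against Anakinra 1 with the combination (1.57%) and 0 with PLX3397 (0.747%). This rule cannot call a gene that is below 4 TPM in both groups, such as Cd163.

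Markers of the cells that take up heme and iron moved in the same comparisons. Of 10 microglial markers, 10 rose from sham to vehicle, and 10 fell against vehicle with PLX3397 and also with the combination. Their summed level was 1438 to 1867 TPM in vehicle, 619.8 to 950.2 in PLX3397, 1555 to 1759 in Anakinra and 554 to 740.3 in combination mice. Of 7 markers of activated phagocytes, 7 rose after TBI, 6 fell with PLX3397 and 7 fell with the combination. Their sum was 557 to 610.1 TPM in sham, 7943 to 14462 in vehicle, 4963 to 8577 in PLX3397, 8331 to 11531 in Anakinra and 3449 to 4734 in combination mice.

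Markers of border macrophages, which line vessels and meninges, summed to 18.4 to 22.99 TPM in sham, 150.0 to 295 in vehicle, 70.6 to 125 in PLX3397, 156 to 221 in Anakinra and 42.96 to 56.3 in combination mice. Of these 8 markers, 7 rose and 1 fell after TBI, and 7 fell against vehicle with PLX3397 and also with the combination. Monocyte and neutrophil markers summed to 0.660 to 3.69 TPM in sham, 11.2 to 44.8 in vehicle and 17.3 to 59.1 in PLX3397 mice. Their sum was 18.3 to 62.1 TPM in Anakinra and 12.5 to 28.2 in combination mice. Of the 6 tested, 6 rose after TBI. Against vehicle, 2 fell with PLX3397, 1 with Anakinra and 3 with the combination, and 0 rose. S100a8, which had the highest mean of these markers in each group, averaged 11.5 TPM in vehicle and 18.9 TPM in PLX3397 mice. Ccr2 averaged 2.23 TPM in vehicle and 0.596 TPM in combination mice, and Mmp8 3.82 and 0.663 TPM. Ly6g, the defining surface gene of neutrophils, stayed near 0 (0 to 0.145 TPM in vehicle mice). The part of these cells in the changes of Cd163, Slc11a1, Ftl1, Slc40a1 and Hmox1 was not tested. Astrocyte, oligodendrocyte and endothelial markers rose after TBI (7 of 7, 5 of 7 and 5 of 7) and changed in 1, 0 and 0 of 7 with the combination. Choroid plexus markers changed in 2 of 7 after TBI and 0 of 7 with the combination, hepatocyte markers (a list that shares Ttr with choroid plexus) changed in 0 of the 3 tested after TBI, and of 6 markers of meninges and fibroblasts 5 rose after TBI, while 4 rose and 1 fell with the combination against vehicle.

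Beyond the 10 genes, 74 further genes of heme and iron pathways were listed and 67 were tested. After TBI 27 of 67 rose and 11 fell, where 54.3% of all genes were called (26.6% higher and 27.7% lower), and their median log2 fold change was 0.10. Against vehicle, PLX3397 lowered 6 of 67 and raised 0, where 9.89% of all genes were called (6.66% lower and 3.23% higher). Anakinra changed 0, where 0.116% of all genes were called. The combination lowered 11 and raised 2, where 17.5% of all genes were called (9.60% lower and 7.88% higher). Counted in either direction, these shares are near those of all genes. By direction they are less even, with more rises than falls after TBI and more falls than rises with the combination.

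Of 11 iron uptake genes, 6 rose and 2 fell after TBI. Lcn2, a siderophore-binding lipocalin of the acute phase response, rose from 1.31 to 62.6 TPM (log2 fold change 5.09, adjusted p = 3.63e-10). Steap3, an endosomal ferrireductase, rose from 5.38 to 15.8 TPM (log2 fold change 1.38, adjusted p = 3.45e-10), and Trf, the iron carrier transferrin, rose from 501 to 1261 TPM (log2 fold change 1.33, adjusted p = 3.08e-13). Slc22a17, a receptor for Lcn2, fell from 672 to 523 TPM (log2 fold change -0.36, adjusted p = 1.51e-05), and Slc11a2, the importer DMT1, fell from 33.5 to 27.4 TPM (log2 fold change -0.28, adjusted p = 8.72e-06). With the combination, Lcn2 fell from 62.6 to 23.4 TPM (log2 fold change -1.52, adjusted p = 0.0105). Its mean was 25.3 TPM with Anakinra alone (log2 fold change -1.35 against vehicle, adjusted p = 0.149, not called) and 54.9 TPM with PLX3397 alone, and the combination was not called against either drug alone. Also with the combination, Slc39a8, a zinc and iron importer, fell from 5.40 to 3.62 TPM (log2 fold change -0.47, adjusted p = 0.0166), Trf fell from 1261 to 1086 TPM (log2 fold change -0.22, adjusted p = 0.0373) and Slc22a17 rose from 523 to 596 TPM (log2 fold change 0.19, adjusted p = 0.0221).

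Among the 5 tested genes of heme-responsive transcription, 3 rose and 1 fell after TBI. Nfe2l2, the gene of NRF2, an activator of Hmox1 and the ferritin genes, rose from 12.3 to 36.5 TPM (log2 fold change 1.50, adjusted p = 6.8e-12), and Bach1, their heme-sensitive repressor, rose from 8.91 to 15.5 TPM (log2 fold change 0.74, adjusted p = 5.59e-09). Both fell with PLX3397 against vehicle, Nfe2l2 from 36.5 to 28.1 TPM (log2 fold change -0.36, adjusted p = 0.0158) and Bach1 from 15.5 to 12.96 TPM (log2 fold change -0.25, adjusted p = 0.0228). With the combination, Nfe2l2 fell from 36.5 to 26.2 TPM (log2 fold change -0.47, adjusted p = 0.0012) and Bach1 from 15.5 to 11.6 TPM (log2 fold change -0.39, adjusted p = 0.000197). Of 10 other NRF2 targets, 8 rose and 1 fell after TBI, led by the peroxiredoxin gene Prdx1 from 227 to 473 TPM (log2 fold change 1.05, adjusted p = 1.86e-10) and the cystine carrier gene Slc7a11 from 13.99 to 23.7 TPM (log2 fold change 0.72, adjusted p = 1.74e-09). The combination lowered 1 of these 10, Prdx1 from 473 to 400.3 TPM (log2 fold change -0.24, adjusted p = 0.0416).

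In the other lists fewer genes moved. Of 9 iron sensing genes 3 rose and 1 fell after TBI, and Hfe, which modulates transferrin receptor and hepcidin signalling, rose from 4.91 to 16.3 TPM (log2 fold change 1.54, adjusted p = 1.24e-11) and fell with PLX3397 from 16.3 to 11.8 TPM (log2 fold change -0.43, adjusted p = 0.00627) and the combination from 16.3 to 10.9 TPM (log2 fold change -0.53, adjusted p = 0.000514). Of 8 heme transport genes 3 rose and 2 fell, and Mfsd7b, the heme exporter also called Flvcr1, rose from 13.1 to 17.8 TPM (log2 fold change 0.42, adjusted p = 9.37e-07). Mfsd7b fell with PLX3397 from 17.8 to 14.2 TPM (log2 fold change -0.31, adjusted p = 0.000319) and the combination from 17.8 to 13.3 TPM (log2 fold change -0.40, adjusted p = 4.96e-06). Of 9 heme synthesis genes 1 rose and 2 fell, and Alas2, the erythroid form of the first enzyme, fell with PLX3397 from 7.80 to 1.84 TPM (log2 fold change -1.54, adjusted p = 0.00011) and the combination from 7.80 to 2.31 TPM (log2 fold change -1.32, adjusted p = 0.000408). Of 6 mitochondrial iron genes 0 rose and 1 fell. Ncoa4, the receptor for ferritin degradation, rose from 69.2 to 88.4 TPM (log2 fold change 0.35, adjusted p = 0.000107) among 3 further iron storage genes. App, which is listed with iron export, fell from 1073 to 825 TPM (log2 fold change -0.38, adjusted p = 2.32e-06) after TBI, and Lrp1, the hemopexin receptor and the only further scavenging gene tested, was not called (log2 fold change 0.12) and is named after its value was seen.

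**Figure D4:**
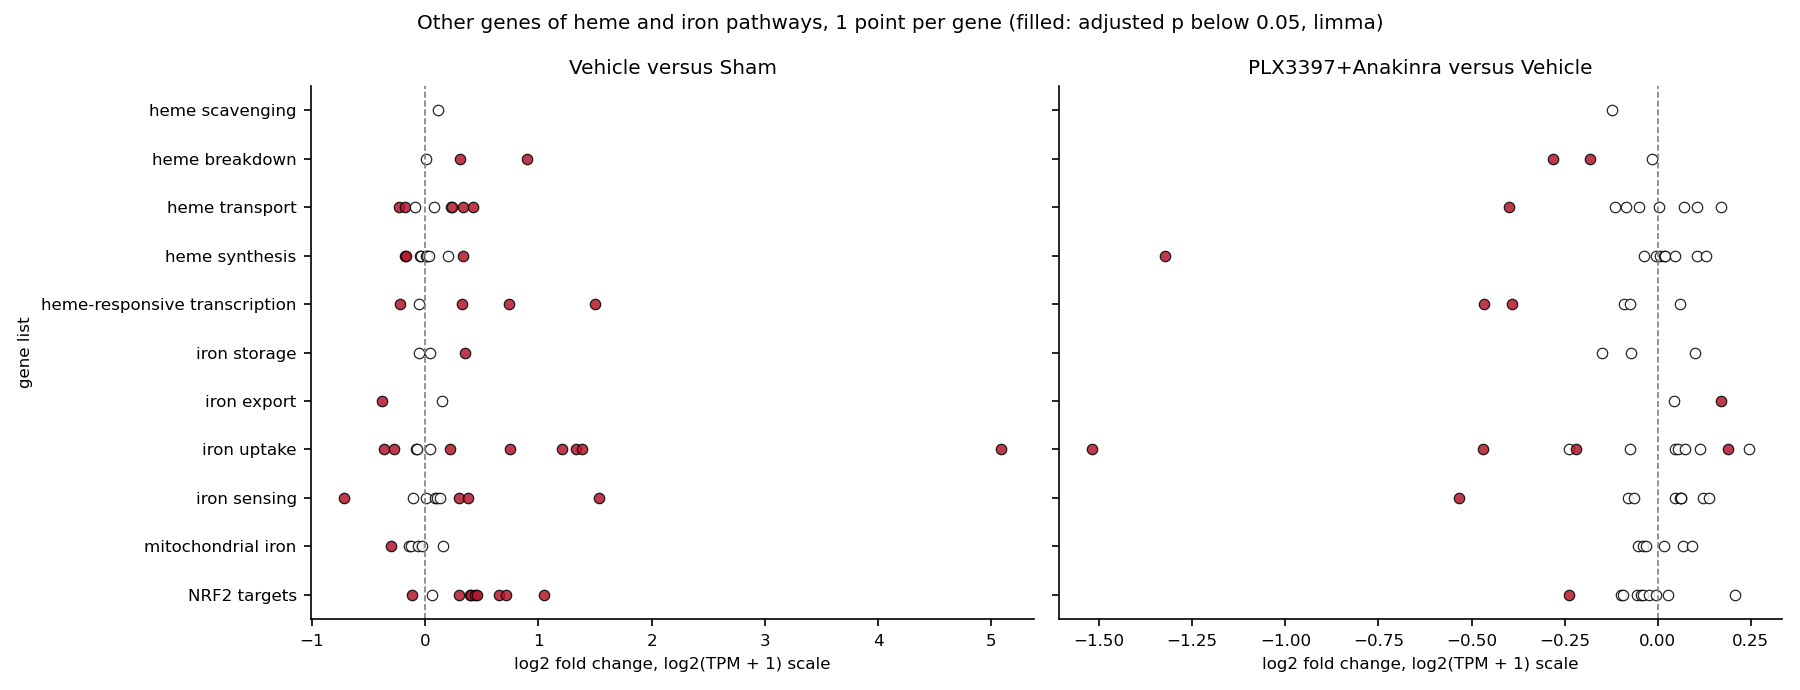
Log2 fold changes, on the log2(TPM + 1) scale, of the tested genes of heme and iron lists other than the 10 genes described above, after injury (left) and with the combination against vehicle (right). Each point is a gene, filled where the adjusted p in limma was below 0.05, and the axes of both panels differ. On the left the point far to the right is Lcn2, and on the right the points farthest to the left are Lcn2 and Alas2.

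Hemoglobin transcripts were read as the summed TPM of 4 hemoglobin genes, which is not a measure of bleeding. The sum was 2138 to 3186 TPM in sham, 1504 to 4395 in vehicle and 2480.1 to 3285 in Anakinra mice. It was 605 to 1069 TPM in PLX3397 and 722 to 948 in combination mice. Sham and vehicle mice overlapped, whereas both PLX3397 groups were below all others. None of the 5 red blood cell markers tested was called between vehicle and sham, and all 5 were lower with the combination than with vehicle. Hemoglobin transcripts come from circulating cells as well as from blood outside the vessels, and both cannot be told apart here. In the paper's histology of male mice, mean hematoma area tended to be larger with every drug treatment than with vehicle, significantly so for Anakinra alone. The part of bleeding in the levels of Hmox1 and of the hemoglobin transcripts was not tested.

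Within the 4 TBI groups, with group means removed, hemoglobin transcripts were compared with each of the 10 genes over 20 mice. None of the 10 relations passed after adjustment over the 10. The highest was that of Hp (Pearson r = 0.67, permutation p = 0.00809, adjusted p = 0.0809, Spearman rho = 0.56, permutation p = 0.0234, adjusted p = 0.234), with r = 0.55 without the 2 mice farthest from the median. Cp gave r = 0.62 (permutation p = 0.0438, adjusted p = 0.219) and rho = 0.32 (permutation p = 0.249), and r fell to 0.25 without those 2 mice, on which it rested. Ftl1 gave r = 0.53 and Hmox1 r = 0.47 (adjusted permutation p = 0.247 and 0.275, rho = 0.26 and 0.19), which became 0.16 and 0.07 without them. The other 6 genes had r between -0.37 (Tfrc) and 0.34 (Cd163). Within single groups, r of Hmox1 was 0.64 in vehicle, 0.71 in PLX3397, -0.84 in Anakinra and -0.37 in combination mice. Ftl1 and Cp had the same signs as Hmox1 in each group, whereas Hp was positive in all 4. A group of 5 mice is too small for a correlation of its own, so these signs are only a description.

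**Figure D5:**
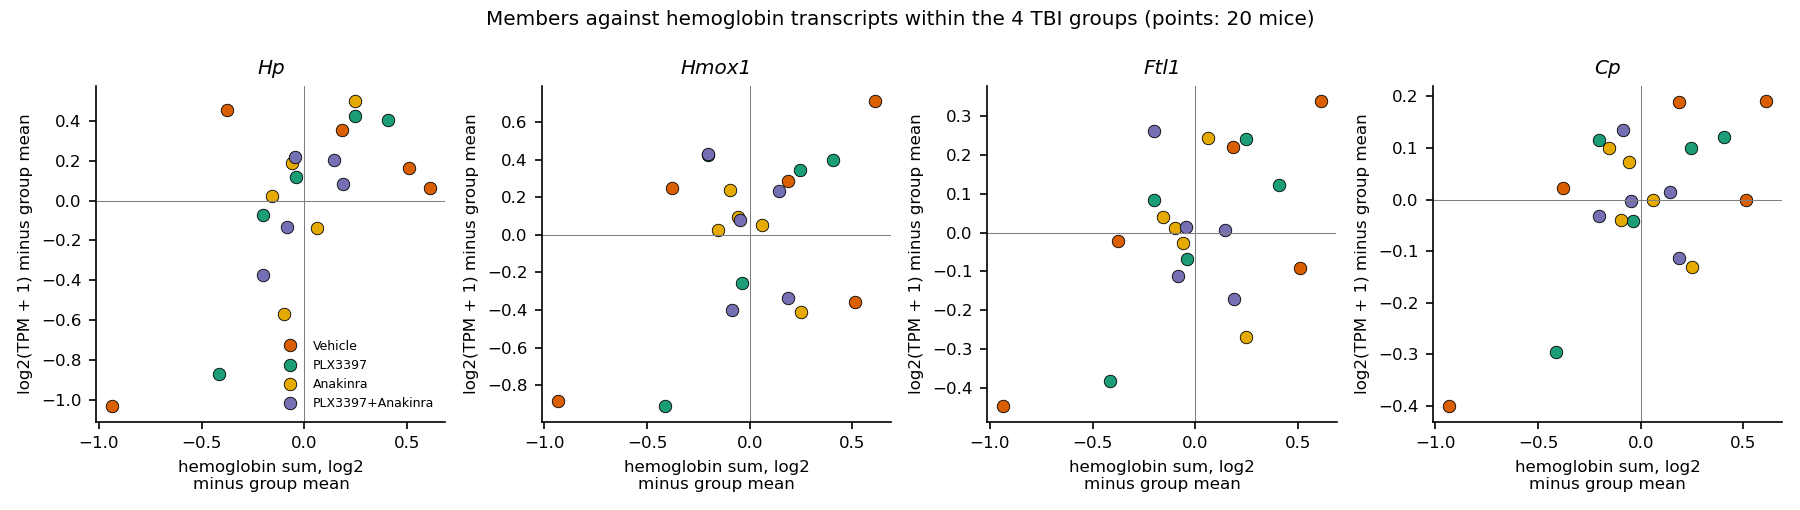
Hp, Hmox1, Ftl1 and Cp against the summed hemoglobin TPM in the 20 TBI mice, both as log2 values minus the mean of the mouse's group. Each point is a mouse, coloured by group. The vehicle mouse and the PLX3397 mouse with the lowest hemoglobin sums lie at the lower left in all 4 panels, and the remaining mice show a wide scatter for Hmox1, Ftl1 and Cp.

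Some of the 10 genes varied together from mouse to mouse, and others did not. With group means removed, Hmox1 and Ftl1 had r = 0.91 over the 20 TBI mice, Ftl1 and Slc11a1 0.81, Ftl1 and Cp 0.80, Hmox1 and Cp 0.79 and Hmox1 and Slc40a1 0.75. Tfrc ran the other way, with -0.75 to Slc11a1, -0.68 to Fth1 and -0.63 to Ftl1. Cd163 and Ftl1 had r = 0.84 over all TBI mice and 0.32 with group means removed, so most of that likeness lay between groups. Hpx had values between -0.15 (Fth1) and 0.25 (Cd163) with the other 9 genes. Low values were also seen for Hmox1 and Fth1 (0.09), Hp and Slc40a1 (0.09), Tfrc and Slc40a1 (-0.09) and Slc40a1 and Fth1 (-0.13), and Cd163 and Fth1 had -0.35. Vehicle replicate 2 and PLX3397 replicate 1 were the lowest of the 20 mice, relative to their group means, for Hmox1, Ftl1 and Cp alike. On the log2 scale they lay at -0.89 and -0.91 for Hmox1, -0.45 and -0.38 for Ftl1 and -0.40 and -0.29 for Cp. The r values of these pairs were not computed without these mice. All r values share libraries and their scaling, and are given as a description.

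The genes with the most similar pattern to each member, by Pearson r of log2(TPM + 1) over the 20 TBI mice among tested genes averaging 5 TPM or more, differed between members. For Ftl1 they were Creg1 (r = 0.98, 0.94 with group means removed), Lilrb4a (r = 0.97, 0.90 with group means removed) and Sgpl1 (r = 0.97, 0.91 with group means removed). For Hmox1 they were Fgl2 (r = 0.92, 0.88 with group means removed), Tuba1c (r = 0.91, 0.89 with group means removed) and Msn (r = 0.90, 0.91 with group means removed). For Slc11a1 they were Abcc3 (r = 0.97, 0.88 with group means removed), Ugt1a7c (r = 0.97, 0.83 with group means removed) and Tcirg1 (r = 0.97, 0.86 with group means removed). The closest genes were F11r for Cd163 (r = 0.96), Erap1 for Slc40a1 (0.93), Ccdc181 for Tfrc (0.88), Kif1c for Fth1 (0.81), Cox15 for Hpx (0.81), Aspg for Cp (0.78) and Gadd45g for Hp (0.75). With group means removed, the r of Cd163 and F11r was 0.45, so much of that likeness lay between groups. The others were 0.84, 0.89, 0.82, 0.79, 0.79 and 0.80, in the same order. Cp was itself the second closest gene to Hp (r = 0.70, 0.66 with group means removed).

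Promoter windows from RefSeq (GRCm38.p6, 250 bases before to 50 after the start) were matched for 7 of the 10 genes, without Hmox1, Hp and Slc40a1. The antioxidant response element TGACNNNGC, searched on both strands, was in 1 of these 7 (Hpx) and in 14% of 27025 genes with a window. The MARE core, the recognition element of Maf factors, which contains an AP-1 site, was in 0 of 7 and in 0.167% of all, and the letters CAGTGN on the given strand were in 3 of 7 and in 37.7% of all.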

How the data were processed

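Polyadenylated RNA of lesional and perilesional brain tissue from 24 mice was sequenced as paired-end reads, 1 library per mouse. The authors trimmed, mapped and counted the reads in CLC Genomics Workbench against the mouse assembly GRCm38 (mm10) and deposited TPM values for 36333 genes, scaled to the same sum in every library. TPM keep no read counts, so the depth of a library is unknown and no count model was used. Of the deposited tables the TPM table at full precision was used. A rounded copy of it, and a filtered subset that also holds p and F values of the authors' own tests, were not used.

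Groups were taken from the labels. The 17267 genes that averaged 0.5 TPM or more across all 24 mice were tested on log2(TPM + 1) with limma 3.58.1 in R 4.3.3, in 1 fit over all 5 groups with a trended prior variance, and p-values were adjusted after Benjamini-Hochberg over all genes tested. The 10 pairwise comparisons, the interaction of PLX3397 and Anakinra and an F-test over the 5 groups were read from this fit, which was tested on simulated data. Each library is a separate mouse, so the p-values measure the spread between mice. Two-sided exact permutation tests served for the ferritin ratio, and permutations of mice within groups (100000 resamples, two-sided) for the relation to hemoglobin transcripts.

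The 10 genes and the lists of pathway genes and cell type markers were chosen with earlier results of these data known. Beside the 10 genes, list genes were named only where called, up to 3 in each direction per list and comparison, by absolute log2 fold change, other than those said to be named after their values were seen and the marker genes whose levels are given. Of 171 list genes, 3 were matched by an older symbol and 1 was not matched. Similar genes were ranked as described with the values. Positions and iron-responsive elements come from GENCODE M21 and promoter windows from RefSeq, both on GRCm38. Alternatives covered the pseudocount, the filter, the scaling, the libraries in the fit, the rule for a call and leaving out each mouse.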

Additional observations from a re-analysis of the deposited data

How the results depend on the processing

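The count of called genes among the 10 changed by over 1.5 times under 1 alternative, apart from single mice left out. With a rule of an unadjusted p below 0.05, a ratio of means above 2 and a difference of means above 4 TPM, it went against sham from 9 to 4 in vehicle, from 10 to 3 in PLX3397, from 9 to 4 in Anakinra and from 10 to 3 in combination mice. Against vehicle it went from 3 to 0 with PLX3397 and from 4 to 1 with the combination, and against Anakinra from 5 to 1 with the combination and from 4 to 0 with PLX3397. Leaving out each mouse in turn gave 9 to 9 called genes for vehicle, 10 to 10 for PLX3397, 7 to 9 for Anakinra and 9 to 10 for the combination against sham. Against vehicle it gave 3 to 3 for PLX3397, 0 to 0 for Anakinra and 3 to 6 for the combination, where the 6, with Hmox1 and Cp added, came without vehicle replicate 2. Against Anakinra it gave 4 to 5 for the combination and 3 to 4 for PLX3397, and 0 to 0 for the combination against PLX3397 and for the interaction. The F-test called 8 to 10.

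For the 54 called fold changes of the 10 genes, 664 values were computed with another pseudocount (0.1 TPM), no filter, rescaled libraries or 1 mouse left out. Of these, 640 kept their direction and call, 24 kept their direction and lost the call, and 0 reversed. Rescaling lost none of the 54. With a filter at a mean of 5 TPM only 7 of the 10 genes were tested, without Cd163, Hp and Hpx. No relation to hemoglobin transcripts passed with another pseudocount or with rescaled libraries. No paired analysis was possible because the replicate numbers follow the order of the deposit and name separate mice. Unknown depth limits most what can be said of Cd163, Hp and Hpx, whose TPM are low, and only male mice at 1 time point were measured.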
